A study of Mus musculus with 6 samples.

Results

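The Cxcl12 locus is taken here as the span of the mouse gene Cxcl12, which lies on the plus strand of chromosome 6 from 117168535 to 117181368 (mm10), together with 100 kb on each side. Its members are the ATAC-seq peaks whose summit, the highest point of a peak, lay in this window of 212834 bp. These were 249 of the 525898 peaks listed in 6 libraries. Membership rests on position alone, and no height or width of a peak was used to choose them. The gene is isolated: the nearest protein-coding genes are Tmem72, 451.6 kb upstream, and Zfp637, 659.2 kb downstream. The window also holds a long noncoding RNA gene, 2810048H02Rik, and a pseudogene, Rpl28-ps4, and no library had a summit inside either of them.

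The libraries were made from bone marrow MSPCs, mesenchymal stem and progenitor cells, of female Lepr-Cre;LSL-tdTomato+/- mice. Their age is given as 8 to 10 weeks, which the schedule below does not allow as the age at sorting. The DOX group received 4 intravenous injections of 5 mg/kg doxorubicin at intervals of 1 week, and the PBS group received 4 injections of phosphate-buffered saline on the same schedule. Doxorubicin is an anthracycline chemotherapy drug that traps topoisomerase II on DNA. All mice carried the same reporter, in which Cre driven from the leptin receptor gene switches on tdTomato in cells that express this receptor and in their descendants, and tdTomato-positive cells were sorted from digested marrow 8 weeks after treatment. Each group has 3 libraries, called biological replicates in the titles. The sources do not say if each library was made from 1 mouse or from several. The p-values below thus refer to differences between these libraries, whose spread need not be that between single mice. In ATAC-seq the transposase Tn5 cuts accessible DNA, and peaks of its cuts show where chromatin was open. The design asks how the chromatin of these cells differed 8 weeks after treatment.

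CXCL12 is a secreted chemokine that binds the receptor CXCR4 and the scavenging receptor ACKR3. Leptin receptor lineage stromal cells around marrow sinusoids, also known as CXCL12-abundant reticular cells, are its main source in marrow. The protein holds blood stem cells and B cell progenitors in their niches, and drugs that block CXCR4 release these cells into blood.

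The promoter sequence is shown because the second strongest peak of the locus stood on it in every library. RefSeq gives 300 bases from 250 before to 50 after the gene start, at chr6:117168285-117168584 on the plus strand of GRCm38.p6, the assembly that mm10 displays. Capitals mark the GC box, GGGCGG, on either strand, the motif bound by Sp1 family factors.
Cxcl12 promoter: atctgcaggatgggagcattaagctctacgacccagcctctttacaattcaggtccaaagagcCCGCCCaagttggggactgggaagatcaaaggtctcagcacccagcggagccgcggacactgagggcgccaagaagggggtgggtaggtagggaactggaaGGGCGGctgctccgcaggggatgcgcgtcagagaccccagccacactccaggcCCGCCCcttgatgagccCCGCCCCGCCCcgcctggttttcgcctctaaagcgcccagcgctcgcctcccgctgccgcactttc
The GC box occurs 5 times, with its first base at positions -187, -86, -33, -16 and -11 from the gene start, and the matches at -16 and -11 share 1 base. At least 1 match was present in 46.9% of the 17273 promoters of the same length, and 3.88% held at least 5. The sequence has a GC content of 64.7%, against a median of 56.3% over these promoters, and 20 CpG dinucleotides, against a median of 14; 36.5% of promoters had at least as many. No match to TATAA (the TATA box; in 23.0% of promoters), ACGTG (the core of the hypoxia element; 21.0%), TGANTCA (AP-1; 7.14%), TGTTTAC (forkhead; 2.98%) or TTGCNNAA (C/EBP; 10.3%) was found on either strand, and none to the EBF (0.949%) or NFI (0.0405%) palindrome. A match is a run of letters and says nothing of binding.

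The values of single peaks are those of the authors' peak caller, with no scaling from library to library. Fold enrichment is the ratio of the fragments piled up at the summit of a peak plus 1 to the background of that library plus 1. The background solved from the lists was 1.72, 1.67 and 2.22 fragments per position in DOX replicates 1, 2 and 3, against 1.27, 1.1 and 0.558 in PBS replicates 1, 2 and 3, so by this measure every DOX library was deeper than every PBS library. Folds are therefore not compared between groups. Peaks were ranked by fold within their own library, with rank 1 for the strongest, among the 65462 strongest peaks of each library, the number of peaks that PBS replicate 3, the shallowest library, had on chromosomes 1 to 19 and X. The weakest peak kept had a fold of 7.72, 8.23 and 9.0 in DOX, against 7.49, 7.16 and 3.85 in PBS. A region with no peak lay below the threshold of that library, and it need not be closed. Of 10 MSPC marker genes, 8 to 9 had a summit within 1 kb of a gene end in each library of either group. Lepr, Cxcl12, Kitl, Foxc1 and Ebf3 were among them, while Prrx1 had none in any library. Of 8 endothelial genes 1 to 2 had one. Kdr had one in all 6 libraries, and Pecam1, Cdh5 and Tek had none in any. Of 6 myeloid genes none had one. T and NK cell genes had 2 of 6, osteoblast genes 3 of 6 and erythroid and megakaryocyte genes 2 to 3 of 6 in each library. Of all protein-coding genes, 54.2% had such a summit in all 6 libraries.

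Open chromatin at the locus lay over the gene and downstream of it. In the equal-length lists, overlapping peaks of the 6 libraries merged into 34 regions, of which 12 had a peak in every library. Of these 12 shared regions, 4 touched the gene, 8 lay downstream and 0 lay upstream of the region at the gene start. Another 12 of the 34 regions were listed in 1 library, and 9 of those in PBS replicate 3 alone, whose list reaches lowest in fold. The upstream side held weak peaks at most. The only upstream region listed in all 6 full deposited lists, at 117160315 to 117160662, had folds of 5.88, 7.48 and 10.5 in DOX and 8.37, 7.63 and 3.85 in PBS. In the lists of equal length the region nearest the upstream end of the window lay at 117099809 to 117100070 and was listed in PBS replicate 3 alone. In the full lists it had folds of 5.15, 6.73 and 6.21 in DOX, and of 3.96 and 5.78 in PBS replicates 1 and 3, with no peak in PBS replicate 2.

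**Figure D1:**
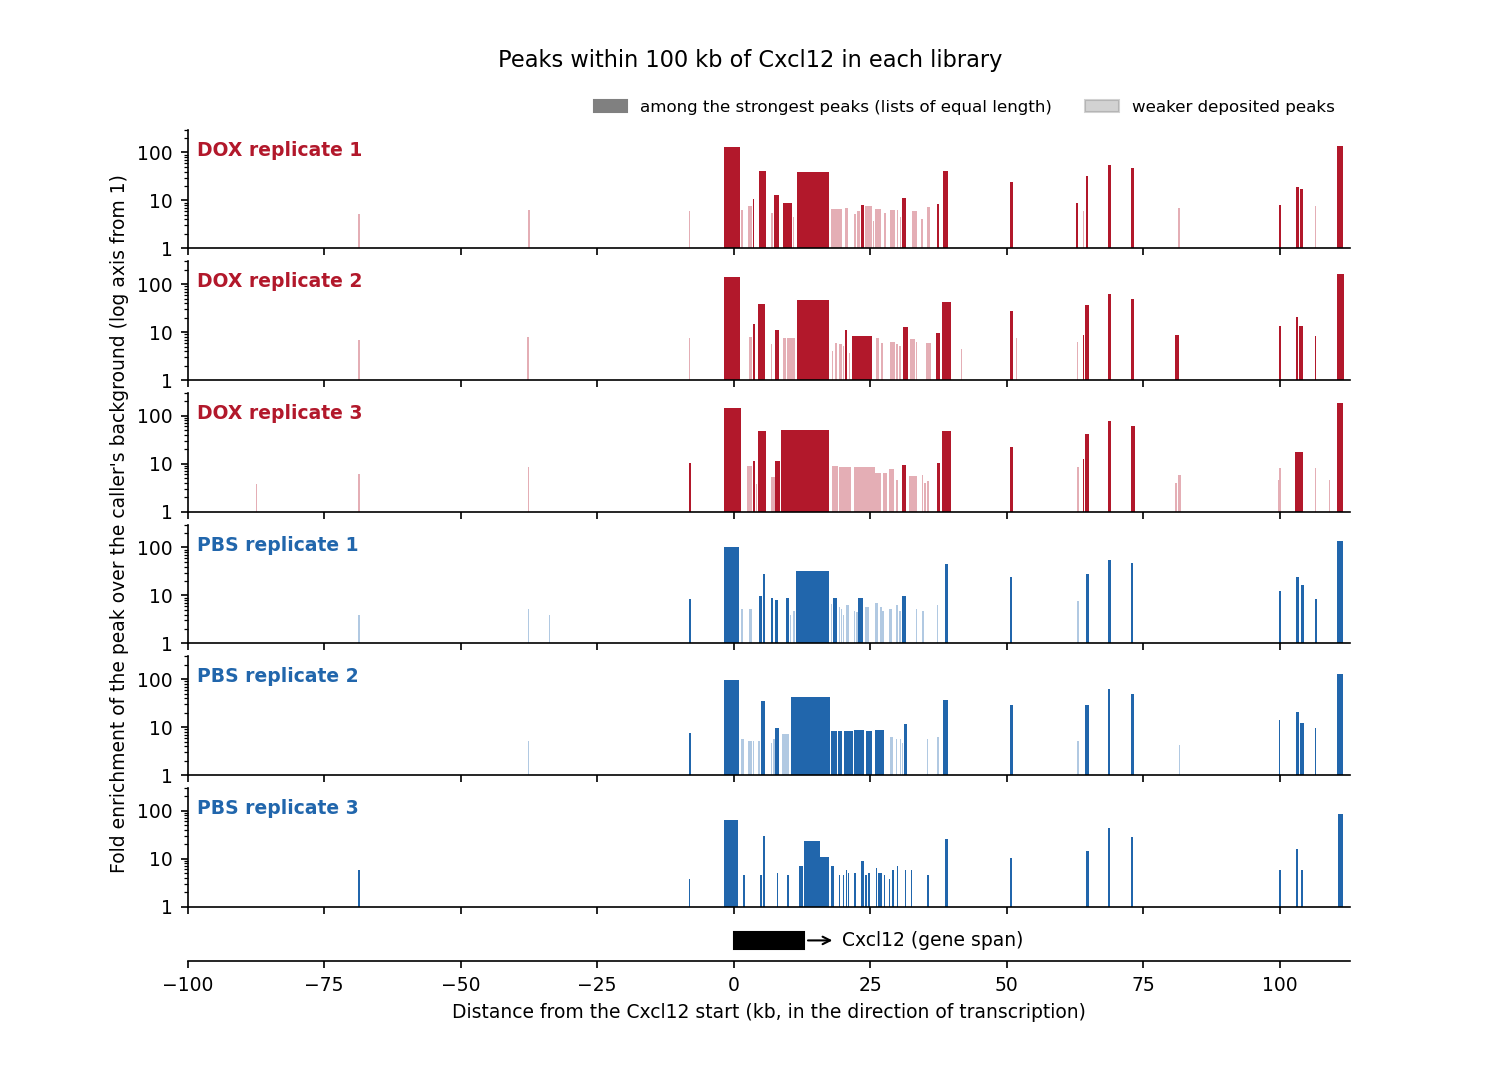
Peaks whose summit lay within 100 kb of Cxcl12, by distance from the gene start in kb (horizontal axis), with fold enrichment on a log axis that starts at 1 (vertical axis), for 3 DOX libraries above 3 PBS libraries. Full colour marks peaks among the strongest 65462 of the library and pale colour weaker deposited peaks; the strong peaks at the start, over the gene end, at 68.8 kb and at 111.1 kb recur in all 6 libraries, and the upstream side holds only weak peaks.

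The strongest peak of the locus was not at the gene. It lay 111.1 kb from the start (chromosome 6, 117278999 to 117280185), and it ranked first among the 12 shared regions in all 6 libraries. Its fold was 138, 166 and 184 in DOX replicates 1, 2 and 3, against 134, 126 and 86.7 in PBS replicates 1, 2 and 3. Its ranks were 2581, 2018 and 1856 in DOX and 2267.5, 3120 and 2727 in PBS, so it stood within the strongest 2.84% to 4.77% of peaks everywhere, and the groups overlapped. The summit kept its place to within 8 bp, at 110933 to 110941 bp from the gene start. The difference in rank on a normal score scale, on which a positive value means ranked higher in DOX, was 0.105 ± 0.0682 (SE; limma, Benjamini-Hochberg adjusted p = 0.533). This region is also the nearest to the downstream end of the window, with its summit 1893 to 1901 bp inside, and the next peak outside lay 3095 to 3167 bp beyond the edge.

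The peak over the gene start came second in all 6 libraries (117166792 to 117169813). Its fold was 133, 138 and 147 in DOX, against 105, 96.8 and 64.8 in PBS. Its ranks were 2875.5, 3719 and 4079.5 in DOX and 4674.5, 6021.5 and 5469.5 in PBS. Every DOX library thus ranked it above every PBS library. It was the only one of the 12 shared regions with this pattern, which 10.9% of all 49098 shared regions in the genome showed. The difference was 0.216 ± 0.0656 (SE; limma, Benjamini-Hochberg adjusted p = 0.2; unadjusted p = 0.00423 in the same limma fit), the lowest adjusted p of the locus, and it did not pass the threshold of 0.05. The background was also higher in every DOX library than in every PBS library, and its part in the rank was not tested. The summit lay 13, 13 and 16 bp after the start in DOX and 15 bp after it in PBS replicate 3, and 37 and 33 bp before it in PBS replicates 1 and 2, close to the GC box at -33 in the sequence above.

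Among promoters, the start peak was among the widest and moderately high. Among the 9186 to 9643 protein-coding gene starts that lay under a peak, the Cxcl12 start placed 2217th, 2759th and 2980th by fold in DOX and 3337th, 4081st and 3704th in PBS. The median fold over such starts was 90.4, 101 and 113 in DOX and 84.6, 87.8 and 55.2 in PBS, below Cxcl12 in every library. By width it placed 203rd, 246th and 255th in DOX and 172nd, 257th and 97th in PBS, within the widest 2.71% in every library. The peak covered 2950, 2902 and 2999 bp in DOX, against 2699, 2703 and 2544 bp in PBS, while the median over such starts was 1099, 1141.5 and 1172 bp in DOX and 981, 1052 and 827 bp in PBS. All DOX widths exceeded all PBS widths. Peaks were wider in DOX in general, by a median of 0.28 on the log2 scale over all shared regions, and relative to its library's median the start region differed by -0.18 ± 0.11 log2 units (SE; limma, Benjamini-Hochberg adjusted p = 0.529).

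**Figure D2:**
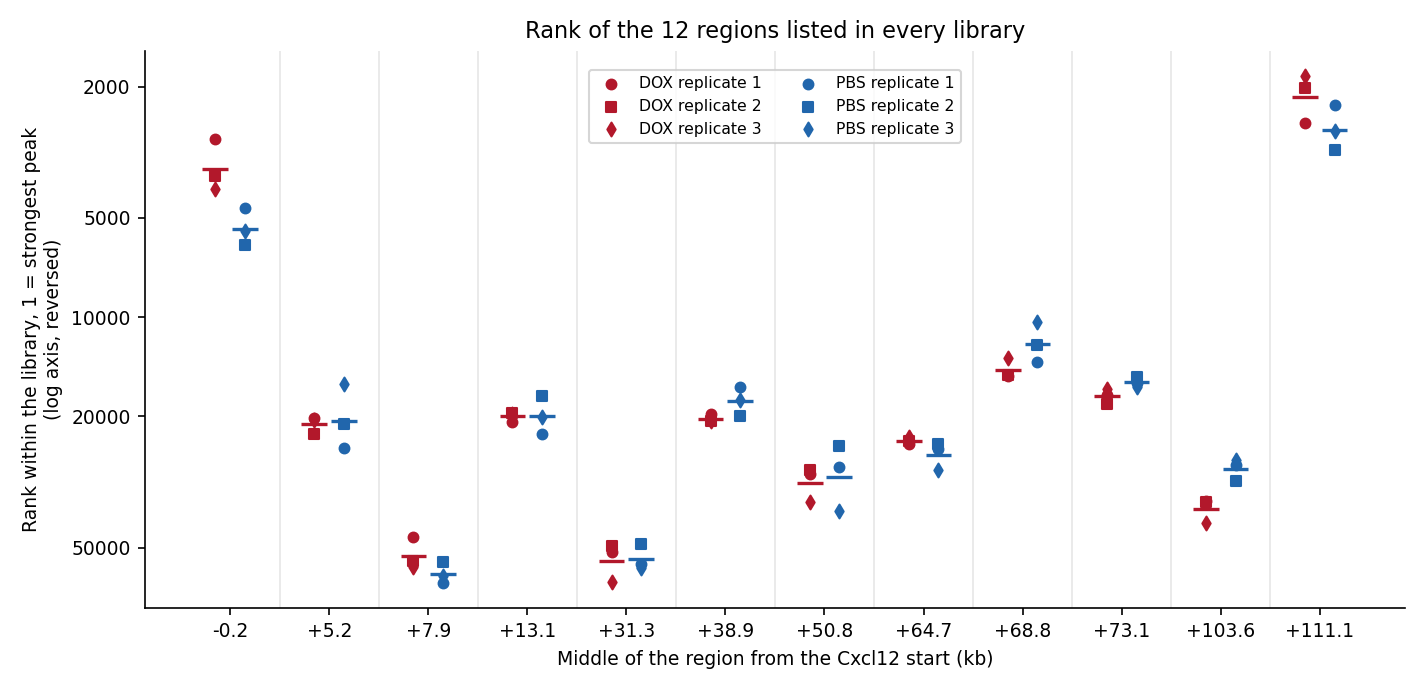
Rank of the strongest peak of each of the 12 shared regions within its library (log axis, reversed, so that stronger peaks stand higher), by distance of the region from the gene start in kb. Points are libraries, DOX left of PBS, and bars are group means. At the start (-0.2 kb) all DOX points lie above all PBS points, and at 73.1 and 103.6 kb all lie below. Of all shared regions, 10.9% showed the first pattern and 7.85% the second.

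Behind these came a narrow peak at 68.8 kb (117237062 to 117237544), next in order in all 6 libraries. It had a fold of 55.5, 61.7 and 76.9 in DOX and of 54.6, 61.5 and 43.7 in PBS. Its ranks were 15041, 14924.5 and 13260.5 in DOX and 13646, 12126 and 10372.5 in PBS, so that the groups overlapped. The difference was -0.13 ± 0.0653 (SE; limma, Benjamini-Hochberg adjusted p = 0.412). Its summit moved by no more than 4 bp between libraries and its peaks covered only 435, 482 and 467 bp in DOX and 400, 394 and 314 bp in PBS.

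A neighbour at 73.1 kb (117241217 to 117241964) held place 4 in 5 of 6 libraries. It had a fold of 48.5, 49.8 and 61.7 in DOX and of 47.1, 50.1 and 28.9 in PBS. Its ranks were 17165.5, 18361 and 16559.5 in DOX and 15858, 15185 and 16282.5 in PBS, so that every DOX library ranked it below every PBS library. The difference was small, -0.0756 ± 0.0636 (SE; limma, Benjamini-Hochberg adjusted p = 0.643). This pattern occurred in 2 of the 12 shared regions, and it was one that 7.85% of all shared regions showed.

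The order of the next 3 regions was not settled: they changed places between libraries. At 38.9 kb (117206651 to 117208260) the fold was 41.9, 43.0 and 48.1 in DOX and 45.8, 37.2 and 26.3 in PBS, with a summit that stayed within 4 bp. Over the gene end (117177151 to 117186110) it was 39.3, 46.4 and 50.9 in DOX and 32.2, 43.4 and 23.1 in PBS. Inside the gene, at 5.2 kb (117173017 to 117174405), it was 40.4, 38.5 and 48.4 in DOX and 28.6, 34.8 and 29.5 in PBS. The first ranked above the second in 3 of 6 libraries, and the second above the third in 4 of 6. None of them passed the rank test: the differences were -0.104 ± 0.0708, -0.00219 ± 0.0758 and -0.028 ± 0.0904 in the order given (SE; limma, Benjamini-Hochberg adjusted p = 0.554, 0.994 and 0.924).

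The region over the gene end was the broadest of the locus. Merged over the libraries it spanned 8960 bp, from 8616 to 17575 bp after the gene start, and it placed 36th by span among the 78613 regions of the genome; the start region placed 619th. Its peaks covered 7527, 5906 and 8884 bp in DOX, against 6543, 7140 and 5570 bp in PBS, with overlap between the groups. The widest single peak measured 5918, 5906 and 8884 bp in DOX and 6010, 7140 and 2904 bp in PBS, and it was among the 96 widest of 65462 in every library. PBS replicate 3 divided the stretch into 4 peaks, and DOX replicates 2 and 3 and PBS replicate 2 each had 1. The centred difference in width was -0.13 ± 0.13 log2 units (SE; limma, Benjamini-Hochberg adjusted p = 0.673). The annotation used gives gene spans only, so exons, introns and untranslated regions were not told apart.

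The regions at 5.2 and 38.9 kb were the 2 with an unadjusted p under 0.05 for width in limma. The inner region at 5.2 kb covered 1235, 1279 and 1389 bp in DOX and 1032, 721 and 564 bp in PBS. It was the only shared region of the locus in which every DOX library was wider than every PBS library after centring, a pattern of 5.91% of all shared regions. At 38.9 kb peaks covered 831, 1585 and 1610 bp in DOX and 522, 898 and 440 bp in PBS, so that DOX replicate 1 lay below PBS replicate 2. The centred differences were 0.46 ± 0.16 at 5.2 kb and 0.79 ± 0.26 at 38.9 kb (SE; log2 scale; limma, Benjamini-Hochberg adjusted p = 0.476 for both). Neither passed. Within PBS the widths at 5.2 kb stood in the order of the backgrounds, which were 1.27, 1.1 and 0.558. Within DOX they did not, as the backgrounds there were 1.72, 1.67 and 2.22. In the full lists PBS replicates 1 and 2 covered 1032 and 1053 bp, which reversed their order. The part of depth in the difference was not tested.

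**Figure D3:**
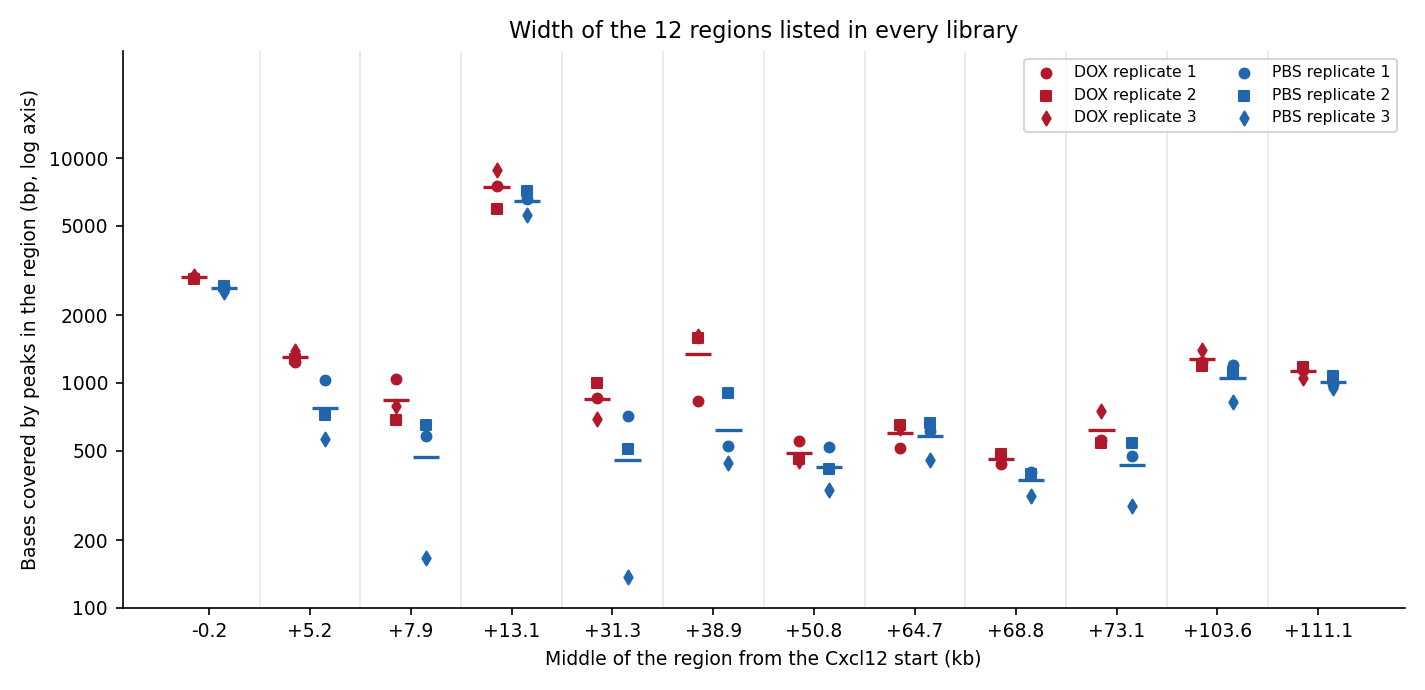
Bases covered by peaks in each of the 12 shared regions (log axis), by distance from the gene start in kb, with libraries as points, DOX left of PBS, and group means as bars. The region over the gene end (13.1 kb) is the broadest in every library. Widths are shown without centring, and at -0.2, 5.2, 7.9 and 68.8 kb all DOX points lie above all PBS points. After centring this held at 5.2 kb alone, a pattern of 5.91% of all shared regions.

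The other 5 shared regions were weaker, and they are named here after their values were seen. At 64.7 kb the fold was 32.4, 36.3 and 41.6 in DOX and 28.2, 29.6 and 14.8 in PBS. Relative to its library's median this region was narrower in every DOX library than in every PBS library, which 15.4% of all shared regions were, with a difference of -0.27 ± 0.13 log2 units (SE; limma, Benjamini-Hochberg adjusted p = 0.476). At 50.8 kb the fold was 24.6, 27.7 and 22.3 in DOX and 24.2, 29.1 and 10.3 in PBS, and the groups overlapped in rank. The 2 weakest, at 7.9 kb inside the gene and at 31.3 kb, had folds of 9.31 to 13.2 in DOX and 5.14 to 11.4 in PBS, near the weakest peak kept. They stood last and next to last in every library.

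At 103.6 kb (117271390 to 117272918) the direction was opposite to that at the gene start. The fold was 19.1, 20.2 and 18 in DOX and 24.7, 21 and 16 in PBS. The ranks were 36031.5, 36334 and 42146 in DOX and 28075, 31419.5 and 27159.5 in PBS. Every DOX library thus ranked it below every PBS library, a pattern of 7.85% of all shared regions. The difference was -0.359 ± 0.122 (SE; limma, Benjamini-Hochberg adjusted p = 0.239). With the gene start it was 1 of the 2 shared regions of the locus that had an unadjusted p under 0.05 for rank in limma. Over the genome 13.0% of shared regions had one. This region is split into 2 peaks in every library but DOX replicate 3, whose single peak covers the stretch.

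In all, 0 of the 12 shared regions passed the rank test, where 0 of 49098 passed in the genome (0.0%), although 2 of the 12 and 6363 of the 49098 (13.0%) had an unadjusted p under 0.05 in limma. In the width test 0 of the 12 passed, and 19 regions (0.0387%) passed in the genome, 18 of them wider in DOX; an unadjusted p under 0.05 was found for 2 of the 12 and for 5122 of all (10.4%). Mean rank was higher in DOX in 4 of the 12 and lower in 8, and the median difference was -0.0384, against 0.0154 over all shared regions. Centred width was greater in DOX in 5 and smaller in 7, with a median of -0.02 log2 units, against -0.05 over all. In a bulk library, fewer cells with an open region cannot be told apart from less opening per cell.

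**Figure D4:**
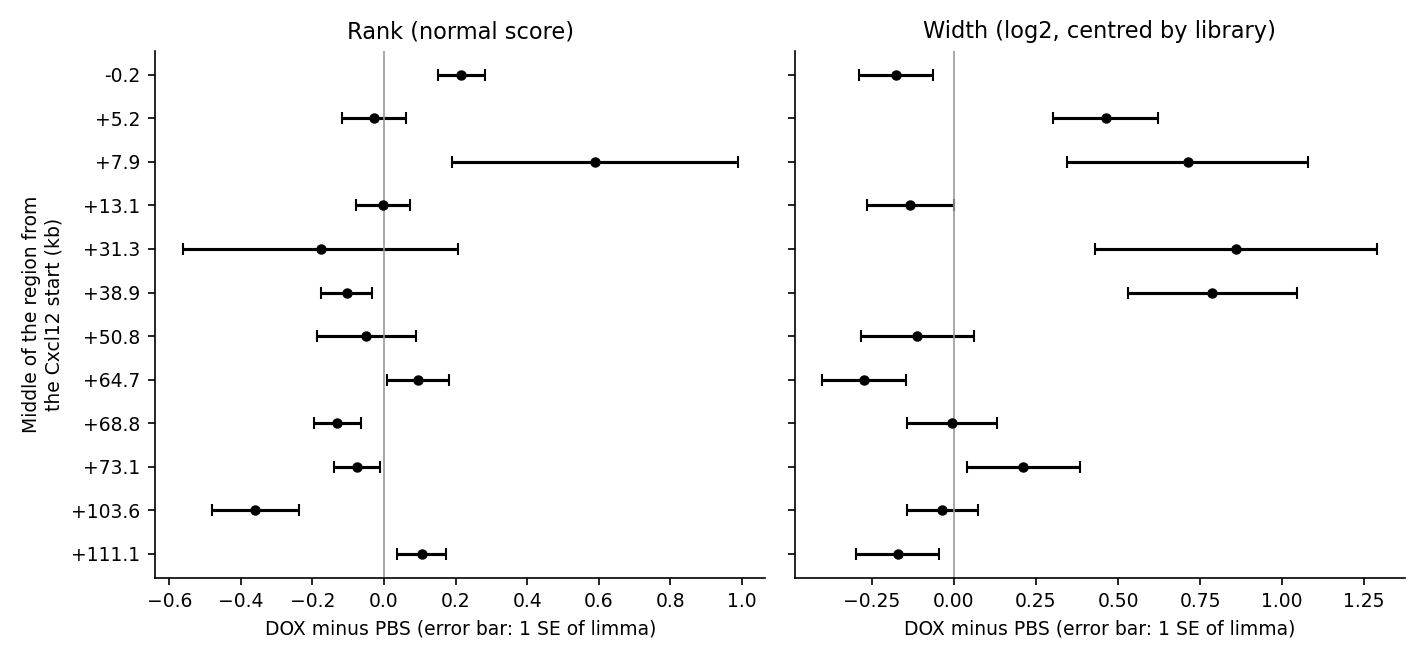
DOX minus PBS for the 12 shared regions, in order of distance from the gene start in kb: the normal score of the rank on the left and log2 width centred by library on the right. Points are limma estimates and error bars 1 SE; 0 of the 12 passed at an adjusted p of 0.05 in either panel.

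Summed over the window, the lists of equal length held 19, 21 and 16 peaks in DOX, against 21, 22 and 38 in PBS. The PBS maximum is replicate 3, and without it the groups still touched at 21. The means were 18.67 ± 2.52 in DOX and 27.0 ± 9.54 in PBS (SD, n = 3 each; p = 0.2, two-sided exact permutation test, in which 3 against 3 cannot go below 0.1). Without PBS replicate 3 the difference of -8.333 peaks became -2.833. In the full lists the means were 42.33 ± 2.08 in DOX and 40.67 ± 4.62 in PBS (SD, n = 3 each; p = 0.8, exact permutation test), so the count depended on where the list ended.

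These peaks covered 20533, 24062 and 22504 bp in DOX and 19072, 25795 and 18031 bp in PBS in the lists of equal length, with overlap (p = 0.7, exact permutation test). In the full lists they covered 33174, 34507 and 39492 bp in DOX and 25838, 32068 and 18031 bp in PBS. Here every DOX library exceeded every PBS library (p = 0.1, exact permutation test, the smallest possible). The full lists hold 91039, 91075 and 100656 peaks in DOX, against 88365, 89283 and 65480 in PBS, and the part of list length and depth in this difference was not tested. Relative to all bases under peaks the difference shrank. The locus took 687.0 ± 24.2 bp per Mb of covered bases in DOX and 632.1 ± 50.9 in PBS (SD, n = 3 each; p = 0.3, exact permutation test). In the lists of equal length these shares were 497.8 ± 35.3 in DOX and 578.1 ± 65.9 in PBS (SD, n = 3 each; p = 0.2, exact permutation test), so the sign depended on the list. Among 21627 protein-coding genes, with each peak of the lists of equal length given to the nearest gene within 100 kb, Cxcl12 placed 88th, 56th and 81st by covered bases in DOX and 65th, 35th and 43rd in PBS.

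Coverage was concentrated on the gene and the 50 kb after it. In the full lists, peaks covered 63.5%, 57.3% and 73.8% of the gene span in DOX, against 46.5%, 66.0% and 21.5% in PBS. PBS replicate 2 lay within the DOX range, and the other PBS libraries lay below it. In the first 50 kb downstream they covered 34.1%, 37.4% and 41.5% in DOX and 25.5%, 32.9% and 20.1% in PBS, with no overlap. Every full DOX list was also longer than every full PBS list, as given above. In the next 50 kb the shares were 11.6 ± 1.17% in DOX and 8.13 ± 1.89% in PBS (SD, n = 3 each). In the 50 kb upstream, which include the start region's own upstream flank, they were 4.71 ± 0.084% in DOX and 4.49 ± 0.547% in PBS (SD, n = 3 each). In the lists of equal length the first 50 kb downstream were covered to 18.7 ± 4.9% in DOX and 21.7 ± 6.91% in PBS, so there the mean was lower in DOX. It was also lower in the 50 kb upstream, at 3.66 ± 0.394% against 4.04 ± 0.139%. It stayed higher in DOX over the gene span, at 49.4 ± 12.8% against 32.2 ± 9.28%, where the groups overlapped. The same held from 50 to 100 kb downstream, at 9.67 ± 1.25% against 7.74 ± 1.51%, without overlap (SD, n = 3 each). Over the genome, too, the lists of equal length covered more in every DOX library. They covered 43.5, 44.7 and 46.6 Mb in DOX, against 37.9, 41.0 and 30.0 Mb in PBS. The part of this general difference in the zones was not tested.

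**Figure D5:**
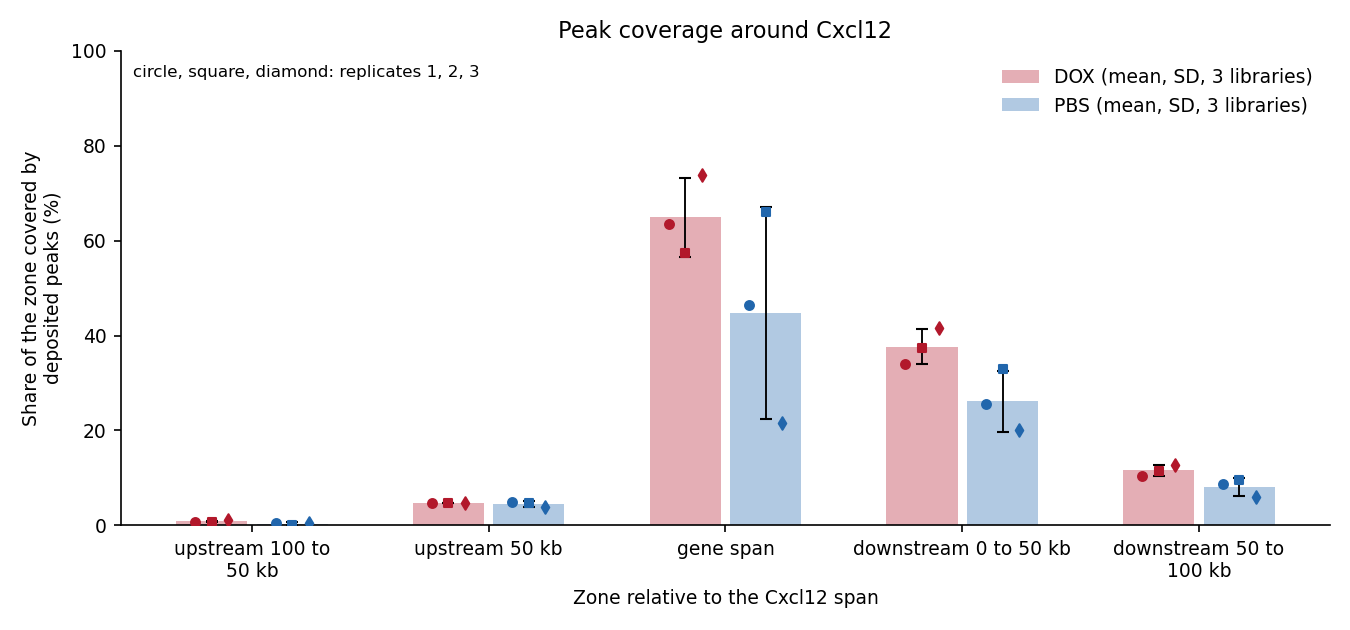
Share of each zone around Cxcl12 that lay under deposited peaks, in percent, with bars for means of 3 libraries, DOX left of PBS, error bars for SD and points for libraries. The gene span and the first 50 kb downstream were the most covered, and the spread in PBS over the gene span ran from 21.5% to 66.0%.

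Base by base, 45476 bp of the window lay under a deposited peak of at least 1 library. Of these, 14351 bp (31.6%) were covered in all 6. Another 1976 bp (4.35%) lay under peaks of every DOX library without any PBS library, and 0 bp under peaks of every PBS library without any DOX library. Over all covered bases of chromosomes 1 to 19 and X, 41.9% were covered in all 6 deposited lists, 2.91% were of the kind with DOX alone and 0.0208% of the kind with PBS alone, so the kind with DOX alone was the more frequent in the genome too. In the lists of equal length the kind with DOX alone made up 804 of 36442 bp of the locus (2.21%) and the kind with PBS alone 109 bp (0.299%), where the genome had 2.62% and 0.091%. PBS replicate 3 alone covered 1744 bp (4.79%) of the locus there, and 1.21% in the genome.

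Regions listed after a single treatment were few and weak. In the lists of equal length 2 had a peak after DOX in each library and none after PBS, a pattern of 0.792% of the 78613 regions in the genome. The first, inside the gene at 117172117 to 117172320, had folds of 10.7, 14.6 and 11.2 in DOX, and the full list of PBS replicate 2 has a peak of 5.25-fold there. The second, downstream at 117205628 to 117206304, had folds of 8.46, 9.35 and 10.2 in DOX, and the full lists of PBS replicates 1 and 2 have peaks of 6.17-fold and 6.2-fold there. A single region, behind the gene at 117186310 to 117187386, had a peak after PBS in each library and none after DOX, a pattern of 0.303% of regions, with folds of 8.81, 8.11 and 7.06. All 3 DOX libraries have peaks there in the full lists, the strongest of 6.62-fold, 5.99-fold and 9.0-fold in replicates 1, 2 and 3. The peak of DOX replicate 3 stood at the threshold of its own list of equal length, which it narrowly missed. In the full lists 1 region, at 117232411 to 117232659, was listed in DOX only, with folds of 5.88, 8.61 and 12.7, where 1.9% of 113038 regions had this pattern. With 1 to 3 such regions these counts are descriptions and carry no test.

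Of the 22 genes of a CXCL12 pathway list, 21 matched the gene table, and 14 (66.7%) had a summit within 1 kb of a gene end in all 6 libraries, as had 11713 of 21627 protein-coding genes (54.2%). Members are named here by role, after their values were seen, since 0 of their regions passed the rank test. Among them were the receptor genes Cxcr4 and Ackr3, and Lepr and the connexin genes Gja1 and Gjc1, whose products carry signals to the source cells. The factors Ebf1, Ebf3, Foxc1, Epas1 and Sp1 were among them too. Mif, a further ligand, and the matrix protease genes Mmp2 and Mmp14 also had one in all 6. Mmp9, Elane and Ctsg, proteases of myeloid cells that can cut CXCL12, had no such summit in any library, and neither had Hif1a, Nr3c1 and Adrb3, while Dpp4 had one in 3 libraries. The list had 155 shared regions, 38 of them at Ebf1, the most of any member. In rank 0 of the 155 passed, and 16 (10.3%) had an unadjusted p under 0.05, a share below the 13.0% over all shared regions. Of the 16, 13 ranked higher and 3 lower in DOX, where 3960 ranked higher and 2403 lower over all shared regions. The median difference was 0.0274 over the list and 0.0154 over all shared regions. For the receptors the median difference was 0.277 over 5 regions at Ackr3 and -0.113 at the 1 region of Cxcr4. Among the signals it was 0.193 over 3 regions at Gjc1, 0.113 over 2 at Adrb3, 0.105 over 10 at Lepr and 0.0124 over 15 at Gja1. For the factors it lay between -0.0122 at Ebf1 and 0.0799 at Hif1a, and for the proteases between -0.115 at Mmp14 and -0.0107 at Mmp2.

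In width 1 of the 155 passed, where 19 of all 49098 shared regions did (0.0387%). This was a region assigned to Epas1, which encodes a hypoxia-inducible factor subunit (chromosome 17, 86782747 to 86787666). It was named after its values were seen. Its peaks covered 4274, 3226 and 4920 bp in DOX, against 876, 1327 and 462 bp in PBS. The groups lay far apart, and the centred difference was 1.99 ± 0.24 log2 units (SE; limma, Benjamini-Hochberg adjusted p = 0.0499). Under 12 alternatives the limma adjusted p ranged from 0.0304 to 0.383 and the difference from 1.56 to 2.33, and 2 of the 12 passed. Its fold was 29.0, 29.6 and 44.7 in DOX and 24.7, 30.5 and 14.1 in PBS.

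The genes whose covered length followed that of Cxcl12 most closely over the 6 libraries were Aldh1a2, Sertad2, Xylt1, Heyl and Myo10. Covered length was taken on the log2 scale relative to each library's median over 1289 genes with at least 10 peaks on average. Pearson's r was 0.985 for Aldh1a2, which encodes an enzyme of retinoic acid synthesis, 0.963 for Sertad2, 0.96 for Xylt1, 0.95 for Heyl and 0.95 for Myo10. On this scale Cxcl12 stood 1.11, 1.3 and 1.15 above the median gene in DOX and 1.2, 1.52 and 1.51 above it in PBS. The 6 points share their libraries and depths, and 9 of the 1289 genes had an r above 0.9, so these values are a description.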

How the data were processed

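Open chromatin was measured by ATAC-seq with an Omni protocol, per the labels, in tdTomato-sorted marrow cells, with 3 DOX and 3 PBS libraries grouped by their titles. The authors deposited a peak list per library on build mm10. Per the submitters' processing notes MACS2 2.2.7.1, Bowtie2 2.4.5 and Trim Galore 0.6.6 were among the tools, with no role or order given. How reads were filtered, whether they were shifted for Tn5 and how MACS2 was set are not given in the sources used. In the deposited lists each peak has a fold enrichment, which is a ratio to background. The deposited lists also give a −log10 p and a −log10 q per peak, a score, and the summit as a distance from the peak's start. All are the authors' values for single peaks of 1 library and served to order and describe peaks inside that list and to solve for depth.

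Fold and −log10 p fix the pileup and the background of a peak under the Poisson model of MACS2. The background was solved from 4058 to 4283 peaks per library with a −log10 p above 5 and under 200. In 100% of these the p followed to within 1%. Over all peaks of chromosomes 1 to 19 and X, 100% of pileups were whole to within 0.05. The lowest pileup kept in the lists of equal length was 20, 21 and 28 fragments in DOX and 16, 14 and 5 in PBS. Peaks on chromosomes other than 1 to 19 and X (13 to 19 per library) were left out. The strongest 65462 peaks of each library were compared, and peaks that overlapped by at least 1 bp were merged into regions. limma 3.58.1 in R 4.3.3, with trend and robust moderation, was fitted to 49098 regions shared by all 6 lists. The fits were on the normal score of the rank and on log2 width centred by library, with Benjamini-Hochberg adjustment at 0.05. They were also run on simulated data without a difference in depth between the groups, which says nothing of the part of depth here. Totals of the locus were tested with a two-sided exact permutation test (SciPy 1.17.1). Gene spans and promoters are RefSeq's for GRCm38.p6. A gene with an inner start can count as having no open end, since only the ends of the span were used.

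The members, gene lists, motifs and tests were chosen with earlier results of these data known. Regions were named by a rule: the start region, the 6 others of best mean rank, those that pass a test or are listed after a single treatment, and those nearest the ends of the window. Genes named are the 5 most like Cxcl12 and pathway genes with a region that passes the rank test, of which there were none; other pathway genes are named by role, outside that rule and after their values were seen, and some members of the lists are not reported here. The alternatives were the full lists and lists of 32731 peaks, a minimum −log10 q of 10, windows of 50 and 200 kb, regions built from summits within 150 bp, other scales of rank and width, a replicate block, plain moderation, and leaving out each library.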

Additional observations from a re-analysis of the deposited data

How the results depend on the processing

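No region of the locus passed the rank or the width test under any alternative run; the lowest adjusted p of the locus in limma with Benjamini-Hochberg adjustment lay between 0.112 and 0.444 for rank and between 0.0557 and 0.778 for width. The replicate numbers were not used as pairs in the main fits. Same-numbered deviations correlated by 0.11, -0.096 and 0.04, against a highest value of -0.047, 0.068 and 0.14 with another number. Values this weak do not settle if the libraries were paired. With a replicate block 0 regions of the locus passed either test, and 29 passed for rank and 38 for width in the genome, against 0 and 19 without it. Over all shared regions the rank test called between 0 and 83 regions and the width test between 0 and 116, depending on the setting. The libraries differed in depth, and its part in these results was not tested. The sums of the locus reversed with the list: the difference in peaks was 1.667 in the full lists and 9.333 at a −log10 q of at least 10, and that in the share of covered length was 54.9, 21.88 with lists of 32731 peaks and 110.9 at that q. Leaving out 1 library, the differences ranged from -11.33 to -2.833 peaks, from -67.17 (without PBS replicate 3) to 3815 bp and from -117.5 to -54.6 bp per Mb of covered bases. Regions listed in DOX only numbered 1 in the full lists and 0 in those of 32731 peaks; those in PBS only numbered 0 in the full lists and 0 with regions built from summits. Leaving out 1 library gave 2 to 3 in DOX and 1 to 3 in PBS. In rank, the full lists reversed the signs at 5.2 kb (0.0924), 13.1 kb (0.123), 31.3 kb (0.341), 38.9 kb (0.0306), 50.8 kb (0.146) and 73.1 kb (0.0485), the mean score of all peaks those at 5.2 kb (0.634) and 13.1 kb (0.332), and lists of 32731 peaks that at 13.1 kb (0.0035). Leaving out 1 library gave -0.119 to 0.0755 at 5.2 kb, -0.058 to 0.0555 at 13.1 kb, -0.401 to 0.222 at 31.3 kb and -0.207 to 0.0695 at 50.8 kb. The start region kept its sign in all these fits, with 0.167 to 0.253 when 1 library was left out, and the region at 103.6 kb kept its own, with -0.408 to -0.281. Without centring, width reversed at the start (0.156) and at 13.1 kb (0.201), 50.8 kb (0.222), 64.7 kb (0.0601), 68.8 kb (0.328), 103.6 kb (0.299) and 111.1 kb (0.163), by construction, since peaks were wider in DOX in general. Lists of 32731 peaks reversed it at 13.1 kb (0.153) and 68.8 kb (0.0421), and summit regions at 13.1 kb (0.0805) and 103.6 kb (0.194). Leaving out 1 library gave -0.247 to 0.02 at 13.1 kb, -0.23 to 0.000606 at 50.8 kb, -0.0603 to 0.0251 at 68.8 kb and -0.0833 to 0.0248 at 103.6 kb. The cause of the other reversals was not tested. The alternative of at least 50% of a peak within its region gives no other value, since every peak lies wholly within its region; the alternatives for the Epas1 region were added after seeing the data.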

Other observations

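Open chromatin went on beyond the downstream end of the window. Between 100 and 200 kb from the gene, 10 more regions had a peak in all 6 lists of equal length, 9 of them downstream and 1 upstream, at -188.0 kb from the gene start. The strongest of these, at 118.8 kb (chromosome 6, 117286863 to 117287724), had a fold of 114, 125 and 150 in DOX, against 93.4, 105 and 55.9 in PBS. Its fold was below that of the start region, which was 133, 138 and 147 in DOX and 105, 96.8 and 64.8 in PBS, in all libraries except DOX replicate 3 and PBS replicate 2. Its ranks were 4586, 4942 and 3763.5 in DOX and 6050.5, 5048.5 and 7178 in PBS. Every DOX library thus ranked it above every PBS library, a pattern of 10.9% of all shared regions. The difference was 0.17 ± 0.0663 (SE; limma, Benjamini-Hochberg adjusted p = 0.298) and did not pass. Another group of strong peaks lay at 145.2 kb, with folds of 75.0, 83.8 and 92.1 in DOX and 70.5, 74.4 and 41.1 in PBS, and at 151.6 kb, with folds of 103, 98.8 and 122 in DOX and 80.2, 85.4 and 50.1 in PBS. No protein-coding gene lies between Cxcl12 and these regions.

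The height of the start peak relative to the peak at 111.1 kb, a ratio within a library that was chosen after its values were seen, was 0.968, 0.833 and 0.799 in DOX and 0.78, 0.768 and 0.746 in PBS. The pileups behind it were 361, 368 and 472 fragments at the start in DOX and 237, 202 and 100 in PBS. At 111.1 kb they were 373, 442 and 591 in DOX and 304, 263 and 134 in PBS. The ratio shows unequal heights within a library and not which of the peaks differed.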
